A study of Mus musculus with 9 samples.

Results

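The 95 genes described here encode the nuclear-encoded subunits of oxidative phosphorylation and some of their assembly factors. They were chosen by symbol, as every gene with a probe set of a single symbol that begins with Nduf, Sdha to Sdhd, Uqcr, Cyc1, Cox4 to Cox8 or Atp5, out of 17731 genes in the table. Each had 1 probe set. By complex, 42 belonged to complex I, 8 to complex II, 9 to complex III, 19 to complex IV and 17 to complex V. The 12 assembly factors among them were 8 Ndufaf genes of complex I and 4 Sdhaf genes of complex II. The subunits that mitochondrial DNA itself encodes had no member in the gene set and were not analysed here, and 3 probe sets with a similar symbol beside a second one were left out.

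Oxidative phosphorylation is the final stage of respiration, carried out in the inner mitochondrial membrane. Complex I takes electrons from NADH and complex II takes them from succinate, coenzyme Q passes them to complex III, and cytochrome c passes them on to complex IV, which reduces oxygen. The proton gradient built on the way drives complex V, the ATP synthase. Blood stem cells are known to lean on glycolysis and to engage respiration as they differentiate, and several of these complexes need both nuclear and mitochondrial genes. Complex II is encoded in the nucleus alone and doubles as an enzyme of the citric acid cycle, next to the reactions that make and use 2-oxoglutarate.

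RNA was measured on 9 Affymetrix mouse arrays in 3 groups of 3. All groups started from C57BL/6 mouse bone marrow cells immortalised with HoxA9, a homeobox leukemia gene, which controls and test groups therefore shared. By retrovirus, CTL cells received EGFP with no further insert. IDH1wt cells received pSF91 with wild-type IDH1 ahead of an IRES and EGFP, and IDH1mut cells received pSF91 with mutant IDH1 ahead of an IRES and GFP. IDH1 is the cytosolic isocitrate dehydrogenase, whose cancer mutants make 2-hydroxyglutarate. Cells were transplanted into irradiated syngeneic mice, and GFP-positive marrow cells were sorted after 4 weeks. The labels used here give no age of the mice, no residue for the mutant, and no word on whether arrays of a group came from separate mice, separate infections or the same clone. Where arrays do not come from separate mice or infections, p-values measure only the spread between these RNA samples. The labels do not give the species of the IDH1 insert, so no probe set was used to check the group labels.

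Values are log2 expression after RMA and start at 1.72 in the table, with array medians from 4.65 to 4.72. A difference is a difference of group means of log2 values, given with its standard error (SE), and a value per group is given per array. Genes "rose", "fell" or "changed" where limma's two-sided moderated test gave an adjusted p (Benjamini-Hochberg over all 17731 genes) under 0.05. Myeloid markers were high in the sorted cells: Mpo, the myeloperoxidase of promyelocytes, read 12.64 to 13.39 on all arrays. The makeup nevertheless differed between groups. In IDH1mut against CTL 9 of 13 late neutrophil markers and 11 of 12 erythroid markers rose and 9 of 9 primary granule markers fell. Over all genes 10.1% rose and 10.6% fell. In bulk RNA of this kind, fewer cells of a type and less RNA per cell cannot be told apart.

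In IDH1mut against CTL, most oxidative phosphorylation genes sat lower in IDH1mut, by small amounts. Of the 95 genes, 24 fell and 6 rose, which is 31.6% changed, beside 20.7% of all genes. By direction, 25.3% of the members fell, where 10.6% of all genes fell, and 6.32% rose, where 10.1% of all genes rose. The falls ran from 1.24-fold to 1.98-fold. The median difference over the 95 members was -0.21, beside -0.04 over all genes, and 78 members had a mean below that of CTL (82.1%, against 57.3% of all genes). The IDH1mut arrays all lay below all CTL arrays for 50 members, where 21.5% of all genes did so, and all lay above for 9, where 16.3% did. With the quantile normalisation repeated 27 fell and 7 rose, and with arrays centred on their medians 21 fell and 6 rose.

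Among genes brighter than the median gene, the share of changed members was near that of all genes. The split of the members by direction was less even, a difference that was not tested. Among the 82 members brighter than the median gene (a mean above 4.94), 32.9% changed, beside 35.1% of all genes that bright. Of those members 29.3% fell and 3.66% rose, whereas over the bright genes as a whole falls (18.1%) and rises (17.0%) were about even. At a mean of 6 or more, a value chosen after the data were seen, 24 of 75 members fell (32.0%) and 1 rose (1.33%), beside 19.7% and 18.6% of all genes at that level, with a median difference of -0.24 against -0.06 over those genes. Of the 20 members under 6, 0 fell and 5 rose (25%), beside 5.03% and 4.88% of all genes under 6. These shares were not tested, and the genes beside them were not matched in level within each range. The median difference of all genes was -0.026 at levels of 8 to 9 and -0.065 at 9 to 10. It was -0.105 at 10 to 11 and -0.074 at 11 to 12.

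**Figure D1:**
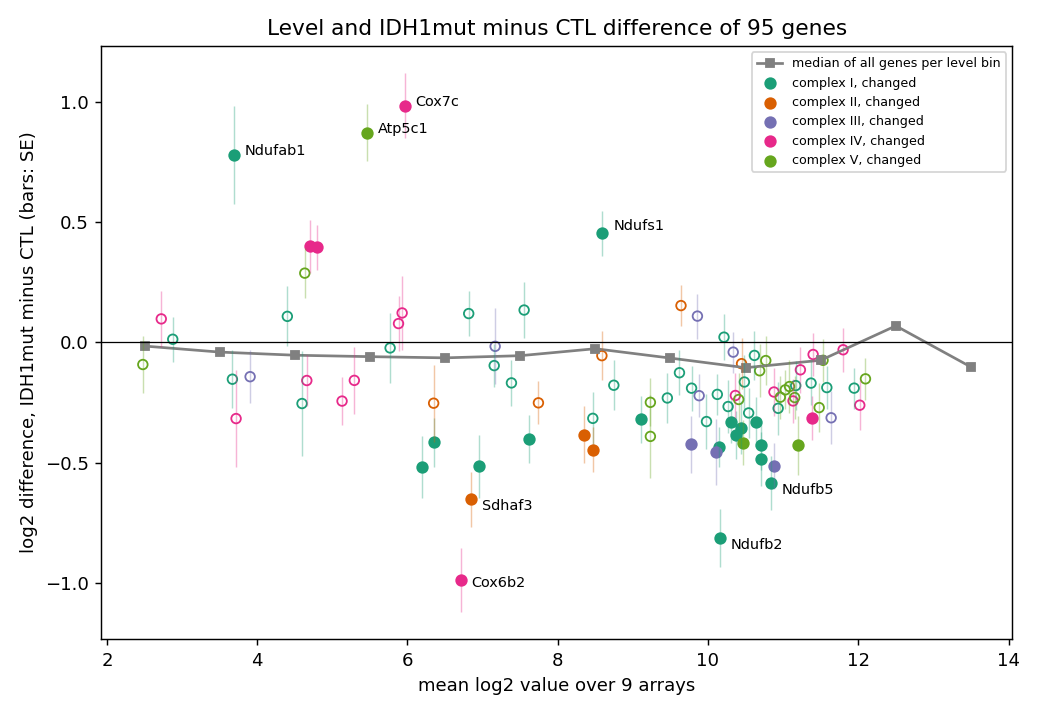
Difference in mean log2 value between IDH1mut and CTL (vertical axis, with SE bars) against the mean log2 value over the 9 arrays (horizontal axis) for the 95 genes, coloured by complex. Filled points changed, open points did not pass the test, and grey squares join the median difference of all genes per unit of level. The filled points below 0 all lie at a level above 6, and Cox7c, Atp5c1, Ndufab1, Cox5b and Cox8a are the filled points under it.

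The deviation of each array, taken as the median over the 95 members of the distance from a gene's mean over all arrays, showed how the groups were spread. The CTL arrays stood at 0.11, 0.05 and 0.14. The IDH1wt arrays stood at 0.07, -0.05 and -0.04, and the IDH1mut arrays at -0.03, -0.05 and -0.21. CTL 1 and CTL 3 were thus above every other array, CTL 2 lay just under IDH1wt 1, IDH1wt 2 and 3 lay with IDH1mut 1 and 2, and IDH1mut 3 lay lowest. The arrays at the ends carried part of the count: without CTL 1 the count of changed members was 19 (13 lower), without CTL 3 it was 15 (11 lower), and without IDH1mut 3 it was 18 (12 lower). The median difference without IDH1mut 3 was -0.15.

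**Figure D2:**
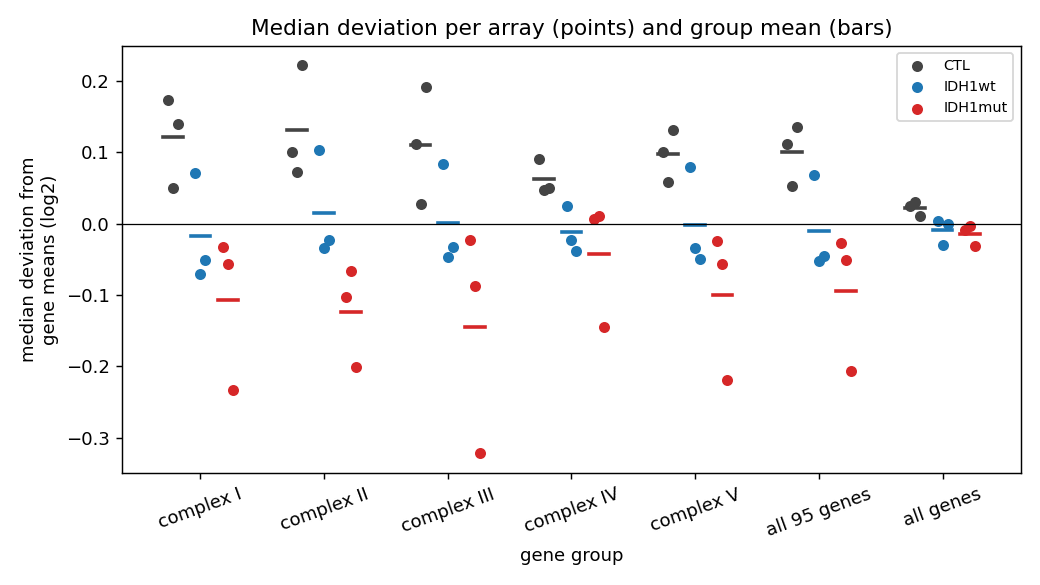
Median deviation of the members from their gene means on each array (points, log2) by complex, for all 95 genes and for all genes of the table; bars are the means of the 3 arrays of a group. In each complex CTL lies highest on average and IDH1mut lowest, and IDH1mut 3 is the lowest array in every complex, at -0.32 in complex III.

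Calls of 13 members held in every fit that left out 1 array and in all other settings. These were Ndufa10, Ndufb2, Ndufb5, Ndufc1, Ndufs8, Sdhc, Sdhaf3, Uqcrc1, Cox6b2 and Atp5g2 among those that fell, and Ndufs1, Cox7c and Atp5c1 among those that rose. The other 17 lost the call in at least 1 such fit, and none of the 30 changed sign in any fit without 1 array.

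Complex I, the NADH dehydrogenase, had 14 of 42 genes fall (33.3%) and 2 rise (4.76%), at a median of -0.22. Over all genes 10.6% fell and 10.1% rose, and among genes brighter than the median gene 18.1% fell and 17.0% rose. The membrane arm, which pumps protons, had 8 of 20 members fall and 1 rise. The matrix arm, which carries the flavin and the iron-sulfur clusters, had 3 of 14 fall and 1 rise, and of the assembly factors 3 of 8 fell. These shares were not tested against each other.

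Ndufb2, an accessory subunit of the membrane arm, fell most of the complex I genes. It read 10.62, 10.48 and 10.66 on the CTL arrays, 10.34, 9.97 and 10.03 in IDH1wt and 9.89, 9.81 and 9.61 in IDH1mut. The 3 groups did not overlap, with IDH1wt in the middle. The difference between IDH1mut and CTL was -0.81 ± 0.12 (SE, n = 3 against 3), a 1.76-fold fall (limma, adjusted p = 0.000868). IDH1wt differed from CTL by -0.47, which did not pass the test (limma, adjusted p = 0.0705).

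Ndufb5, a further accessory subunit of that arm, followed another order. CTL read 11.07, 11.05 and 11.03, IDH1wt 11.21, 10.80 and 11.02, and IDH1mut 10.54, 10.50 and 10.35. Only the IDH1mut arrays stood apart here, and the IDH1wt arrays lay on both sides of CTL. The fall was 1.5-fold against CTL (-0.58 ± 0.11; limma, adjusted p = 0.0038) and 1.46-fold against IDH1wt (-0.55 ± 0.11; limma, adjusted p = 0.00899).

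Ndufc1 and Ndufa10 are accessory subunits of the membrane arm as well. Ndufc1 read 10.88, 10.87 and 11.01 in CTL, 10.87, 10.65 and 10.79 in IDH1wt and 10.50, 10.58 and 10.23 in IDH1mut. It fell 1.40-fold (-0.48 ± 0.11; limma, adjusted p = 0.0102), and the IDH1mut arrays lay below all others. Ndufa10 read 10.39, 10.33 and 10.33 in CTL, 10.20, 10.22 and 10.13 in IDH1wt and 9.92, 9.95 and 9.88 in IDH1mut. The groups followed the same order as for Ndufb2 without overlap, and Ndufa10 fell 1.35-fold (-0.44 ± 0.08; limma, adjusted p = 0.00372).

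The other accessory subunits that fell did so on calls that hung on single arrays. Ndufb1 (-0.40; limma, adjusted p = 0.0147), Ndufb3 (-0.33; adjusted p = 0.0222) and Ndufc2 (-0.38; adjusted p = 0.0168) each lost the call without CTL 1, CTL 3 or IDH1mut 3, at adjusted p up to 0.064, 0.0933 and 0.0759. Ndufa8 (-0.35; adjusted p = 0.0418) lost it when any 1 of the CTL or IDH1mut arrays, or IDH1wt 3, was left out, up to 0.136, and with the replicate number as a block (0.0526). Ndufa5 (-0.32; adjusted p = 0.0363) lost it without CTL 1, CTL 3, IDH1wt 3, IDH1mut 2 or IDH1mut 3, up to 0.126. For all 5 genes the IDH1mut arrays lay below the CTL arrays. Ndufa1 and Ndufa13, which had the brightest probe sets of the complex, differed by -0.19 each and did not pass (adjusted p = 0.148 and 0.176).

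The core subunits, which do the electron transfer itself, split in direction. Ndufs8, which holds iron-sulfur clusters close to the quinone site, read 10.95, 10.86 and 10.95 in CTL, 10.85, 10.65 and 10.60 in IDH1wt and 10.61, 10.50 and 10.38 in IDH1mut. It fell 1.34-fold (-0.43 ± 0.10; limma, adjusted p = 0.0119), with IDH1wt below CTL and overlapping IDH1mut. Ndufv2, an iron-sulfur subunit of the NADH-binding module, fell 1.26-fold (-0.33 ± 0.10; limma, adjusted p = 0.0431), a call lost when any 1 of 6 arrays was left out (the 3 CTL arrays, IDH1wt 3, IDH1mut 2 and IDH1mut 3; adjusted p up to 0.147 without CTL 1). Its partner Ndufv1, which binds NADH, differed by -0.19 and did not pass (limma, adjusted p = 0.19).

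Ndufs1, the largest iron-sulfur subunit, went the other way. CTL read 8.38, 8.34 and 8.44, IDH1wt 8.50, 8.60 and 8.58, and IDH1mut 8.91, 8.71 and 8.90. The groups did not overlap and were higher in that order, and IDH1mut was 1.37-fold above CTL (0.45 ± 0.09; limma, adjusted p = 0.00532). It was the only member with a mean of 6 or more that rose. Ndufs7 and Ndufs3, core subunits next to the quinone site, differed by 0.02 and -0.13 and did not pass.

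The assembly factors that fell were Ndufaf2, which holds the place of Ndufa12 during assembly, Ndufaf5 and Ndufaf6. Ndufaf2 differed by -0.51 (limma, adjusted p = 0.0162; 0.0685 without CTL 3, and also lost without IDH1mut 3). Ndufaf5 differed by -0.41 (limma, adjusted p = 0.014; 0.0514 without CTL 3), and Ndufaf6 by -0.52 (limma, adjusted p = 0.0143; 0.0511 without CTL 2). Ndufaf4 and Ndufaf7 had differences of 0.12 and 0.13 in the other direction, and neither passed the test.

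Complex II, the succinate dehydrogenase, was uneven, with 3 of 8 genes lower and 0 higher. The 3 were 37.5% of the complex, beside 10.6% of all genes and 18.1% of genes brighter than the median gene. Of its 4 subunits only the membrane anchor Sdhc fell. Sdhc read 8.68, 8.52 and 8.74 in CTL, 8.60, 8.51 and 8.58 in IDH1wt and 8.29, 8.16 and 8.15 in IDH1mut, so that IDH1mut stood below both other groups. The fall against CTL was 1.36-fold (-0.45 ± 0.09; limma, adjusted p = 0.00633).

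Sdha, the flavoprotein that oxidises succinate, read 9.52, 9.50 and 9.48 in CTL, 9.82, 9.70 and 9.79 in IDH1wt and 9.71, 9.57 and 9.67 in IDH1mut. Both IDH1 groups lay above CTL without overlap, and neither difference passed the test (0.27, adjusted p = 0.142, and 0.15, adjusted p = 0.255; limma). Sdhb, the iron-sulfur subunit, differed by -0.09 in IDH1mut (adjusted p = 0.624). The second anchor, Sdhd, differed by -0.25 (adjusted p = 0.315), with CTL arrays spread from 6.20 to 6.91.

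The assembly factors of complex II act on Sdha and Sdhb, and 2 of 4 fell. Sdhaf3, which helps the iron-sulfur clusters of Sdhb into place, read 7.21, 7.0 and 7.22 in CTL, 7.11, 6.74 and 6.90 in IDH1wt and 6.39, 6.56 and 6.53 in IDH1mut. IDH1mut was below all other arrays, 1.57-fold under CTL (-0.65 ± 0.11; limma, adjusted p = 0.00232). Sdhaf4, which binds flavin-loaded Sdha, fell by 0.38 on the log2 scale (limma, adjusted p = 0.0379), a call lost when any 1 of 6 arrays was left out (CTL 1, CTL 3, IDH1wt 3 and the IDH1mut arrays; adjusted p up to 0.143 without CTL 3) and with the replicate number as a block (adjusted p = 0.0508). Sdhaf1 differed by -0.25 (adjusted p = 0.0696). Sdhaf2, needed to attach flavin to Sdha, differed by -0.05 (adjusted p = 0.768), with IDH1wt lowest (8.47, 8.25 and 8.30, against 8.68 to 8.77 in CTL).

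Complex III, the cytochrome bc1 complex, had 3 of 9 genes fall (33.3%) and 0 rise, at a median of -0.22. Of all genes 10.6% fell, and of genes brighter than the median gene 18.1% fell. Uqcrc1, a large matrix-side core protein, read 11.13, 11.08 and 11.12 in CTL, 10.96, 10.94 and 10.86 in IDH1wt and 10.67, 10.68 and 10.43 in IDH1mut. The 3 groups were separate and in that order, and IDH1mut was 1.43-fold below CTL (-0.51 ± 0.10; limma, adjusted p = 0.00327). Its partner Uqcrc2 differed by -0.04 (adjusted p = 0.804), with 10.27 to 10.39 in CTL and 10.25 to 10.34 in IDH1mut.

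The small subunits Uqcr11 and Uqcrb fell, with differences of -0.45 (limma, adjusted p = 0.0364) and -0.42 (limma, adjusted p = 0.0259). Both leaned on single arrays. Uqcr11 was lost when any 1 of 6 arrays was left out (the 3 CTL arrays, IDH1wt 3, IDH1mut 2 and IDH1mut 3; adjusted p up to 0.119 without CTL 1), and IDH1mut 3 read lowest of all arrays at 9.56. Uqcrb was lost without CTL 1, CTL 3 or IDH1mut 3 (adjusted p up to 0.102 without CTL 3). The redox subunits themselves did not pass: Uqcrfs1, the Rieske iron-sulfur protein, differed by -0.22 (adjusted p = 0.106), and Cyc1, cytochrome c1, by 0.11 (adjusted p = 0.473). Uqcrh, the hinge protein, differed by -0.31 (adjusted p = 0.0678).

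Complex IV, cytochrome c oxidase, had 2 of 19 genes fall (10.5%) and 3 rise (15.8%), at a median of -0.16. The falls were near the 10.6% of all genes, and 10.1% of all genes rose. Among genes brighter than the median gene 18.1% fell and 17.0% rose. Cox6b2, an isoform of the Cox6b subunit known from testis, showed the greatest fall of all 95 genes. CTL read 6.89, 7.03 and 6.96, IDH1wt 7.18, 7.30 and 7.10, and IDH1mut 5.72, 5.92 and 6.29. IDH1mut lay below CTL and IDH1wt lay above it, with no overlap of the 3 groups. The difference was -0.99 ± 0.13 against CTL, 1.98-fold (limma, adjusted p = 0.00054), and -1.22 ± 0.13 against IDH1wt, 2.33-fold (limma, adjusted p = 0.000336). Cox6b1, the general isoform of the same subunit, read 11.38 to 11.45 in CTL and 11.30 to 11.44 in IDH1mut, and its difference of -0.05 did not pass (adjusted p = 0.753).

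The other isoforms of restricted tissue use gave little. Cox4i2, an isoform known from lung that answers to oxygen, differed by -0.24 (adjusted p = 0.117). Cox6a2, Cox7a1 and Cox8b, known from heart and skeletal muscle, differed by 0.08, -0.32 and -0.16. The testis isoforms Cox7b2 and Cox8c differed by 0.10 and 0.12, and Ndufa4l2, known to be induced in low oxygen, by -0.16. None of these 7 passed the test in IDH1mut against CTL, and all 7 had means under 6.

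Among the general subunits Cox7a2 fell by 0.31 on the log2 scale (limma, adjusted p = 0.0333), a call lost without CTL 1, CTL 2, CTL 3, IDH1mut 2 or IDH1mut 3 (adjusted p up to 0.125 without CTL 1). Cox4i1, Cox6c and Ndufa4 differed by -0.26, -0.21 and -0.24 and did not pass (adjusted p = 0.0996, 0.18 and 0.0807). Cox5a, which sits on the matrix side, differed by -0.03, and Cox6a1 by -0.11. Cox7a2l, which joins complexes III and IV into supercomplexes, differed by -0.22 (adjusted p = 0.123).

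The 3 general subunits that rose, Cox7c, Cox5b and Cox8a, had means under 6, and those of Cox5b and Cox8a lay below the median gene too. Cox7c read 5.67, 5.49 and 5.31 in CTL, 6.19, 5.80 and 5.80 in IDH1wt and 6.37, 6.41 and 6.63 in IDH1mut. The groups were separate, with IDH1wt in the middle, and IDH1mut was 1.98-fold above CTL (0.98 ± 0.14; limma, adjusted p = 0.000579). Cox5b rose by 0.40 (limma, adjusted p = 0.0119; 0.0525 without CTL 3). Cox8a rose by 0.40 (limma, adjusted p = 0.024), lost without CTL 2, CTL 3, IDH1mut 1 or IDH1mut 2 (adjusted p up to 0.0983 without CTL 3). Respiring cells use these subunits throughout, and whether these probe sets read the main transcript was not tested.

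Complex V, the ATP synthase, had 2 of 17 genes fall (11.8%) and 1 rise (5.88%), at a median of -0.20. The falls were near the 10.6% of all genes, and 10.1% of all genes rose. Among genes brighter than the median gene 18.1% fell and 17.0% rose. Atp5g2 is a gene for the membrane ring subunit c, whose mature protein 3 genes share. It read 10.66, 10.58 and 10.64 in CTL, 10.68, 10.47 and 10.51 in IDH1wt and 10.30, 10.19 and 10.13 in IDH1mut, so that IDH1mut alone stood apart. The fall was 1.33-fold (-0.42 ± 0.09; limma, adjusted p = 0.00901). The sister genes Atp5g3 and Atp5g1 differed by -0.15 (adjusted p = 0.273) and -0.09 (adjusted p = 0.658), and Atp5g1 read under 2.7 on all arrays.

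In the catalytic head, Atp5e, the epsilon subunit, differed by -0.43 (limma, adjusted p = 0.028; lost without CTL 1, CTL 3 or IDH1mut 3, up to 0.0947). The catalytic beta subunit Atp5b differed by -0.20 (adjusted p = 0.117): its IDH1mut arrays read 10.91, 10.91 and 10.90, below 11.05 to 11.14 in CTL. The alpha subunit Atp5a1 differed by -0.07 (adjusted p = 0.635). Atp5c1, the gamma subunit that turns within the head, rose. It read 5.05, 5.07 and 5.01 in CTL, 5.62, 5.16 and 5.55 in IDH1wt and 5.91, 5.87 and 5.96 in IDH1mut. The groups did not overlap, and IDH1mut was 1.83-fold above CTL (0.87 ± 0.12; limma, adjusted p = 0.000537). Its mean was under 6, like that of Cox7c, though above the median gene. Ndufab1, the acyl carrier protein held in complex I, had a probe set dimmer than the median gene and rose by 0.78 ± 0.20 (limma, adjusted p = 0.0191; 0.074 without CTL 2). Whether the probe sets of Atp5c1 and Ndufab1 read the main transcript was not tested either.

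**Figure D3:**
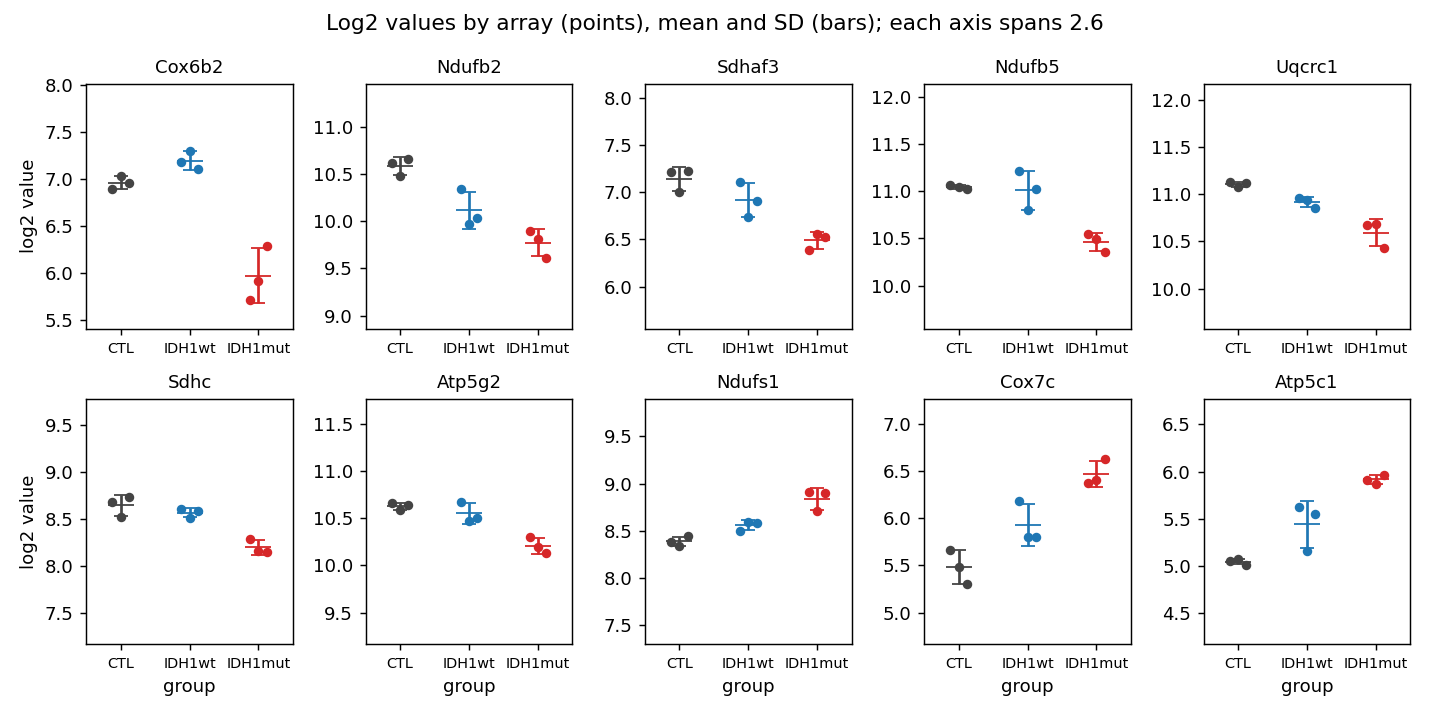
Log2 values of 10 genes on each array (points) with the mean and SD of 3 arrays (bars), by group; every vertical axis spans the same range of log2 units. The 7 genes from Cox6b2 to Atp5g2 are lowest in IDH1mut, and Ndufs1, Cox7c and Atp5c1 are highest there.

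Promoters of the genes are shown because more members fell than rose in IDH1mut against CTL. They are also shown for the motif of NRF1 (nuclear respiratory factor 1), a factor known to bind upstream of many respiratory chain genes. RefSeq windows (GRCm38.p6) of 250 bases before to 50 after a gene's start were found for 78 of the 95 members, 83 windows in all. The motif searched, on both strands, was GCGC, any base and then TGCGC, with no gap. It occurred in 24.1% of the member windows, in 7.53% of the windows of all genes in the table and in 4.6% of all windows. It occurred in 8 of 22 windows of members that fell (36.4%) and in 12 of 61 of the other members (19.7%), and these shares were not tested. Some genes have more than 1 window, and by gene the counts were 7 of 21 and 12 of 57. The other motifs split the other way, also untested. The letters CCGGAAG (an ETS core, CTTCCGG on the other strand) stood in 26.5% of member windows against 13.1% for the genes of the table, and in 18.2% of the windows of members that fell against 29.5% of the others. For AAGATGG (the YY1 core, CCATCTT on the other strand) the shares were 13.3% and 6.43%, and 4.55% of the windows of fallen members against 16.4% of the others. Below, read along the gene from 5′ to 3′, are Sdhaf3 (chr6:6955768-6956067, plus strand), Uqcrc1 (chr9:108936398-108936697, plus strand) and Atp5g2 (chr15:102670998-102671297, minus strand), whose windows hold the NRF1 motif. Beside them are Cox6b2 (chr7:4753045-4753344, minus strand) and Ndufb2 (chr6:39592315-39592614, plus strand), which fell most of all members and whose windows do not hold it. Of the 10 members that fell in every fit and setting, 9 had a window, and the first 3 genes shown are those of the 9 that hold the motif. Capitals mark matches to the NRF1 motif.
Sdhaf3: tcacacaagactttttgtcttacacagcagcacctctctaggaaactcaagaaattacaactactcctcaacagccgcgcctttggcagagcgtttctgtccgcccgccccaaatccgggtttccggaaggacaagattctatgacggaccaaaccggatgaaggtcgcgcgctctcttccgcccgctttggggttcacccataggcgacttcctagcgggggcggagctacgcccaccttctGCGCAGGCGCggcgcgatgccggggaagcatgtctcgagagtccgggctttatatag
Uqcrc1: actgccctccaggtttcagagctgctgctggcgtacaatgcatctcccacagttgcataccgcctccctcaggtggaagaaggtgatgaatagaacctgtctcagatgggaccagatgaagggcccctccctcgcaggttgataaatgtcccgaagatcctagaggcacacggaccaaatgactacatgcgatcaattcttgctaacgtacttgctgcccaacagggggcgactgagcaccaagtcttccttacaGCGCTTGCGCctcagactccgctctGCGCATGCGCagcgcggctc
Atp5g2: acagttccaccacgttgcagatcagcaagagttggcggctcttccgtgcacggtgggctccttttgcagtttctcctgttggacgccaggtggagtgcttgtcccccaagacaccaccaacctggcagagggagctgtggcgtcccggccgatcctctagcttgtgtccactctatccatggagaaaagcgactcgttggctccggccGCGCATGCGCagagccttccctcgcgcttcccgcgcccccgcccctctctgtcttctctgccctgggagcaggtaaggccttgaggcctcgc
Cox6b2: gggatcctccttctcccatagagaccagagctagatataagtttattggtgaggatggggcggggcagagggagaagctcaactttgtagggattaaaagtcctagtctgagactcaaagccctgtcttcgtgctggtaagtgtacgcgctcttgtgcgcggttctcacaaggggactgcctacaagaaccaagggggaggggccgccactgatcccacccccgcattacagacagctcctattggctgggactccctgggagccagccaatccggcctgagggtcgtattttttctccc
Ndufb2: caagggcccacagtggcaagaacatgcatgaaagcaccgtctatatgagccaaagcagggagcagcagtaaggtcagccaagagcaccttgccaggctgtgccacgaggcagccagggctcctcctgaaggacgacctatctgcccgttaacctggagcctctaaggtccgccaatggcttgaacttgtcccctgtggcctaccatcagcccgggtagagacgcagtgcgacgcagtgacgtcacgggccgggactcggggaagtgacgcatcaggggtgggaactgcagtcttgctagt
The match starts at base 244 of the window in Sdhaf3 and at base 209 in Atp5g2, and in Uqcrc1 matches start at bases 256 and 281. A match of letters is a description of the window and says nothing of binding in these cells.

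In IDH1wt against CTL, 0 of 95 genes changed in limma, beside 2.33% of all genes (1.62% higher, 0.711% lower). The lowest adjusted p was 0.0696, that of Sdhaf2. At an unadjusted p under 0.05 there were 20 members, 14 lower and 6 higher (all genes 17.0%). The median difference was -0.11 (all genes -0.04), and 72 members had a mean below CTL (75.8%, against 58.5% of all genes). The 3 IDH1wt arrays lay below CTL for 27 members, where 12.9% of all genes did, and above for 10, where 10.7% did. A count of 0 does not show equal levels, since array weights gave 11 changed members, an intensity trend with robust variances 5, and the brighter genes alone 3. Leaving out IDH1wt 1 gave 2, and leaving out CTL 2 or IDH1wt 2 gave 1.

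The IDH1wt arrays tended to lie between the others, in a description that uses the same CTL arrays for both comparisons. Group means ran from CTL down through IDH1wt to IDH1mut for 52 of the 95 members and for 26.1% of all genes. Among the 24 members that fell, the IDH1wt mean lay between the others in 21. The other 3, Cox6b2, Ndufa5 and Sdhaf4, had IDH1wt highest. These 24 were selected for a gap between CTL and IDH1mut, which by itself favours an IDH1wt mean inside that gap. No such share over all genes that fell was set beside the 21 of 24, so no conclusion is drawn from it. IDH1wt 1 read nearer CTL than did IDH1wt 2 and 3, at median deviations of 0.07 against -0.05 and -0.04.

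In IDH1mut against IDH1wt, which share the vector with an IDH1 insert and differ in its mutation, 11 of 95 genes fell and 4 rose, together 15.8% beside 13.3% of all genes. The falls were 11.6% beside 6.78% of all genes, and the rises 4.21% beside 6.54%. Among bright genes the falls were 12.2% of members and 12% of all genes, and the rises 3.66% of members and 10.8% of all genes. The median difference was -0.08, beside 0 over all genes, and 67 members had a mean below that of IDH1wt (70.5%, against 50% of all genes). The arrays did not overlap for 27 lower members (15.5% of all genes) and 8 higher ones (14.1%). The falls were Cox6b2, Ndufb5, Ndufa12, Ndufaf6, Ndufa5, Ndufc2, Sdhaf3, Sdhaf4, Sdhc, Uqcrc1 and Atp5g2, and the rises were Cox7c, Atp5c1, Cox5b and Sdhaf2. The calls of Cox6b2 and Ndufb5 alone held in every fit without 1 array and in all other settings. The count was 9 without CTL 1, 6, 8 and 4 without IDH1wt 1, 2 and 3, and 8, 6 and 4 without IDH1mut 1, 2 and 3.

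Of the 8 complex II genes, 3 fell (37.5%) and 1 rose (12.5%) against IDH1wt, beside 6.78% and 6.54% of all genes. Complex I had 5 falls among 42 (11.9%), and the 2 complexes were not tested against each other. Of the 4 complex II subunits 1 was called, Sdhc, and the other calls were assembly factors. Sdhc was 0.37 lower (adjusted p = 0.0253), Sdhaf3 0.43 lower (adjusted p = 0.0314) and Sdhaf4 0.43 lower (adjusted p = 0.0316; limma), and each was lost without IDH1wt 1, IDH1wt 3, IDH1mut 2 or IDH1mut 3, at up to 0.0814, 0.103 and 0.105. Sdhaf3 was lost without IDH1mut 1 as well, and Sdhaf4 without IDH1mut 1 or CTL 1. Sdhaf2 rose by 0.34 (limma, adjusted p = 0.0464), from 8.47, 8.25 and 8.30 in IDH1wt to 8.77, 8.75 and 8.53, which is the CTL level. It was lost when any 1 of 7 arrays was left out, all but IDH1wt 1 and IDH1mut 3 (up to 0.141), and with the replicate number as a block (0.0696).

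The remaining calls against IDH1wt outside complex II hung on several arrays. Ndufa12, Cox7c and Cox5b were lost without 3 arrays each: Ndufa12 (-0.50; limma, adjusted p = 0.0204) and Cox7c (0.54; adjusted p = 0.0229) without IDH1wt 2, IDH1wt 3 or IDH1mut 3, up to 0.0723 and 0.0892, and Cox5b (0.39; adjusted p = 0.0202) without IDH1wt 1, IDH1wt 2 or IDH1mut 3, up to 0.0633. Ndufa12, an accessory subunit of the matrix arm, was read by a dim probe set with IDH1wt highest (3.82, 4.07 and 3.96, against 3.43, 3.76 and 3.64 in CTL and 3.47, 3.61 and 3.28 in IDH1mut). Atp5c1 (0.47; limma, adjusted p = 0.0225) was lost when any 1 of the IDH1mut arrays was left out, up to 0.0669. Ndufa5 (-0.38; adjusted p = 0.0239) was lost without IDH1wt 1, IDH1wt 3, IDH1mut 2 or IDH1mut 3, up to 0.0748, and Atp5g2 (-0.34; adjusted p = 0.0347) without those, CTL 1 or CTL 3, up to 0.111. Of the 9 fits that left out an array, Ndufaf6 (-0.45; adjusted p = 0.0385) passed in that without IDH1mut 2 and Ndufc2 (-0.34; adjusted p = 0.0394) in that without CTL 2. Uqcrc1 (-0.32; adjusted p = 0.0469) passed in 0 of 9, and the adjusted p reached 0.129, 0.118 and 0.134. With the replicate number as a block these last 3 had adjusted p of 0.0555, 0.0545 and 0.0639.

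**Figure D4:**
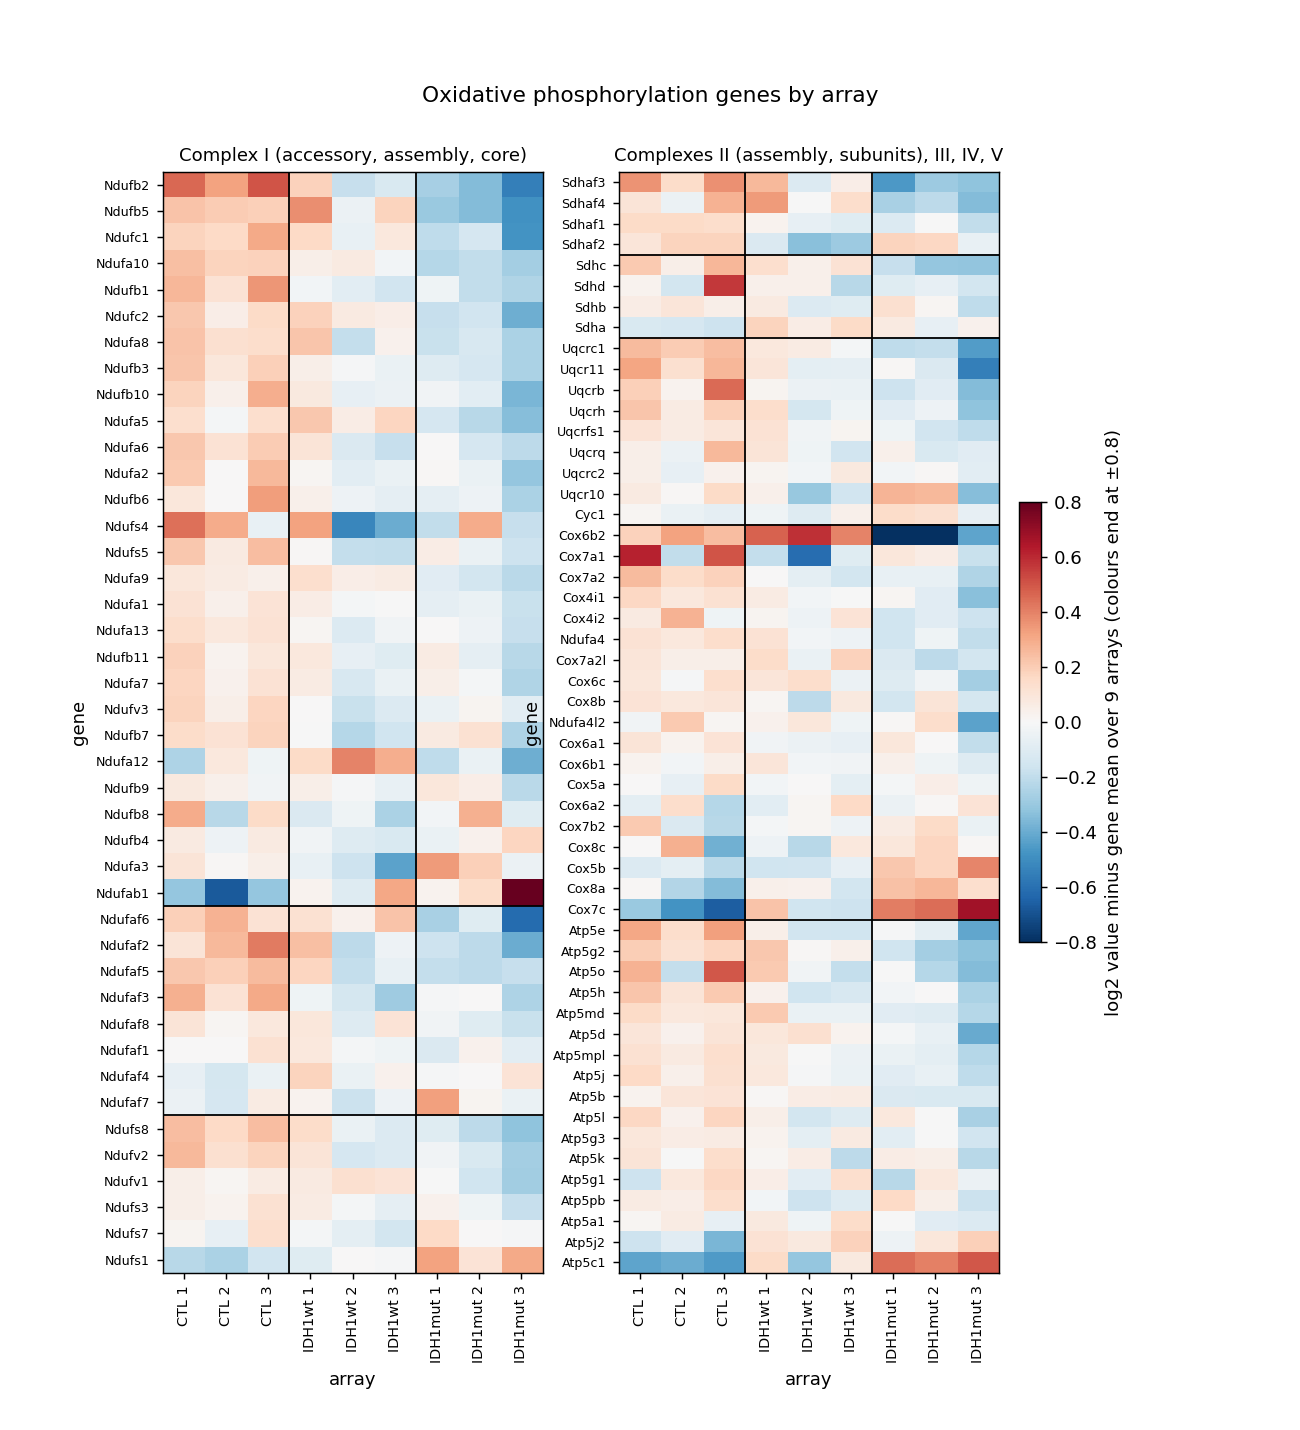
Each row is a gene and each column an array, coloured by the log2 value minus the gene's mean over the 9 arrays (colours end at 0.8 either way); rows are grouped by complex and class, and black lines divide groups. Red prevails in the CTL columns and blue in the IDH1mut columns, most in IDH1mut 3, with Ndufs1, Ndufab1, Cox7c, Cox5b, Cox8a and Atp5c1 in the opposite colours.

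Genes around the complexes were counted from 4 further lists. Over all genes 10.6% fell and 10.1% rose in IDH1mut against CTL. Of genes brighter than the median gene, 18.1% fell and 17.0% rose. Of 40 assembly factors with other symbols, 12 fell and 0 rose in IDH1mut against CTL (30.0% lower; median -0.14). Cox10, which makes heme A for complex IV, fell by 0.59 ± 0.12 on the log2 scale (limma, adjusted p = 0.00485) and by 0.60 against IDH1wt (adjusted p = 0.00756). Its arrays read 6.33, 6.60 and 6.52 in CTL, 6.59, 6.45 and 6.44 in IDH1wt and 6.12, 5.72 and 5.83 in IDH1mut, with IDH1mut apart. Ecsit, of complex I assembly, and Uqcc3, of complex III assembly, fell by 0.48 (adjusted p = 0.00561) and 0.47 (adjusted p = 0.00911). In IDH1wt against CTL 0 of the 40 changed, beside 2.33% of all genes. In IDH1mut against IDH1wt 5 fell (12.5%, beside 6.78% of all genes), Cox10 and Tmem186 (-0.43; limma, adjusted p = 0.0114) among them in every fit without 1 array.

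Of 22 genes of electron carriers and coenzyme Q synthesis, 4 fell (18.2%) and 0 rose in IDH1mut against CTL. Etfb, which brings electrons from fatty acid oxidation, fell 1.67-fold (-0.74 ± 0.11; limma, adjusted p = 0.000692), from 10.99, 10.81 and 10.98 to 10.11, 10.32 and 10.11, with 10.53 to 10.78 in IDH1wt. Coq8a, needed for coenzyme Q synthesis, fell 1.61-fold (adjusted p = 0.00338). Cycs, cytochrome c, fell 1.41-fold (adjusted p = 0.00504), and Dhodh, a pyrimidine enzyme that feeds electrons to coenzyme Q, 1.38-fold (adjusted p = 0.00667).

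Mitochondrial DNA maintenance and transcription went both ways, with 5 of 21 genes lower (23.8%) and 4 higher (19.0%) in IDH1mut than in CTL. Polrmt, the mitochondrial RNA polymerase, fell by 0.51 ± 0.09 on the log2 scale (limma, adjusted p = 0.00222), and Primpol, a primase-polymerase, rose by 0.80 ± 0.11 (limma, adjusted p = 0.000441). Both calls held in every fit without 1 array. Rrm2b, a ribonucleotide reductase subunit, rose by 0.68 (adjusted p = 0.0129; 0.0585 without IDH1mut 3, and lost without CTL 1). Mterf2, a mitochondrial transcription factor, fell by 0.68 on the log2 scale (adjusted p = 0.0146; 0.0632 without CTL 3, and lost without IDH1mut 1 or 2). Tfam, which packs mitochondrial DNA, differed by 0.08 (adjusted p = 0.637). Primpol was the single gene of these 4 lists to change in IDH1wt against CTL (0.54; limma, adjusted p = 0.0219), lost when any 1 of the CTL arrays, IDH1wt 2 or IDH1wt 3 was left out (up to 0.104) and with the replicate number as a block (0.0554).

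Of 20 coactivators and factors that set respiratory gene levels or answer to them, 4 fell and 2 rose. Ppargc1b, a coactivator of mitochondrial genes, read 5.99, 6.25 and 5.89 in CTL, 6.21, 6.14 and 6.18 in IDH1wt and 5.65, 5.21 and 5.48 in IDH1mut. It was 0.60 ± 0.13 lower than in CTL (limma, adjusted p = 0.00666) and 0.73 lower than in IDH1wt (adjusted p = 0.00386). Its relative Ppargc1a was 1.28 ± 0.15 lower (limma, adjusted p = 0.000206), at levels of 3.78 to 4.29 in CTL and 2.58 to 2.92 in IDH1mut, near the low end of the scale. Sirt3, a mitochondrial deacetylase, was 0.58 lower (adjusted p = 0.00408). The rises were Gabpb1, a subunit of the ETS factor GABP (0.32; limma, adjusted p = 0.0225; lost without CTL 1, CTL 3, IDH1mut 2 or IDH1mut 3, up to 0.0782), and Atpif1, the inhibitor of the ATP synthase (0.37; adjusted p = 0.0443; lost when any 1 of the IDH1mut arrays, CTL 2, CTL 3 or IDH1wt 3 was left out, up to 0.165). The fourth fall, of Yy1 (-0.36; adjusted p = 0.0438), was lost when any 1 of the CTL arrays, IDH1wt 3, IDH1mut 1 or IDH1mut 2 was left out, up to 0.158. Nrf1, the factor of the motif above, differed by -0.07 from CTL (adjusted p = 0.762) and was 0.45 lower than in IDH1wt (adjusted p = 0.0315; lost without IDH1wt 2, IDH1wt 3, IDH1mut 1 or IDH1mut 3, up to 0.104).

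Cell type markers moved with the same groups, and their part in the results above was not tested. The mean level of 9 primary granule markers was 11.41 to 11.54 on CTL, 11.29 to 11.44 on IDH1wt and 10.56 to 10.62 on IDH1mut arrays. That of 13 late neutrophil markers was 11.58 to 11.69, 11.66 to 11.71 and 12.25 to 12.32. In both lists IDH1mut stood apart and IDH1wt lay close to CTL. The 12 erythroid markers had means of 7.15 to 7.23 in CTL and 8.35 to 8.60 in IDH1mut, and 6.84, 8.37 and 7.81 on IDH1wt 1, 2 and 3. Thus IDH1wt 2 lay with IDH1mut in erythroid markers, and it had a member deviation of -0.05, beside 0.07 on IDH1wt 1. IDH1wt 3, lower in erythroid markers at 7.81, had a member deviation of -0.04. IDH1mut 1, at 8.35, had a member deviation of -0.03.

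Markers of other lineages were more mixed, where 10.1% of all genes rose and 10.6% fell in IDH1mut against CTL. In IDH1mut against CTL 3 of 9 B cell precursor markers rose, with mean levels of 5.80 to 6.93 in CTL, 4.96 to 6.25 in IDH1wt and 6.42 to 7.68 in IDH1mut, the highest on IDH1mut 3, where the members were lowest. CTL 2, at 6.93, lay above IDH1mut 1 and IDH1mut 2 in these markers (6.83 and 6.42). Of 8 mast cell, basophil and eosinophil markers 4 fell, and of 9 monocyte and macrophage markers 2 rose and 2 fell. In the T and NK cell list 3 of 8 rose and 1 fell, Nkg7, which the primary granule list holds as well. In the megakaryocyte list 1 of 6 fell, and in the stromal and endothelial list, whose mean level was 4.18 to 4.59 on all arrays, 1 of 8 rose and 1 fell. No batch, scan or sort record was analysed here.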

How the data were processed

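Per the submitters' processing notes, the authors deposited log2 values made with RMA (background correction, quantile normalisation and probe set summary; no version is named). The values, from 1.72 to 14.2, lie in the range of a log2 scale. Of 20877 probe sets, 17815 had 1 gene symbol in the platform annotation, 244 had several and 2818 had none, and only the first kind was used. For 17731 genes the brightest probe set on average was taken. Nothing used here says how the array came down to about 1 probe set per gene, or which probe sets were detected. Dim genes have compressed differences, and the number of arrays limits the precision.

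Group means were estimated from 9 arrays together (lmFit and eBayes of limma 3.58.1, R 4.3.3), and 3 contrasts were tested two-sided with Benjamini-Hochberg adjustment over all genes at 0.05. The procedure was tested on simulated data. IDH1mut and IDH1wt share the CTL arrays as their control. Members and lists were chosen with earlier results of these data known, so they were described by counts and medians, with no test of a list. Promoter windows came from RefSeq.

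Genes named were those past the threshold with the largest size, up to 4 per complex, direction and comparison, the 2 brightest of each complex, all of complex II, the isoforms of complexes IV and V, and up to 3 per direction and comparison from each further list. Partners of these, the remaining changed members, Dhodh, Tfam, Nrf1, Yy1, Mpo and the printed promoters were added after their values were seen. Polg, Top1mt, Coa7 and Tk2 also passed under the rule for further lists and are not described above. Alternatives were averaged probe sets, brighter genes, repeated quantile normalisation, median centring, the 6 arrays compared, an intensity trend with robust variances, array weights, a block on replicate number, an unmoderated test and leaving out each array.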

Additional observations from a re-analysis of the deposited data

How the results depend on the processing

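In IDH1mut against CTL the count of 30 changed members became 49 when variances were robust and followed intensity, and 15 to 31 in fits that left out 1 array. In IDH1wt against CTL the count of 0 became 11 with array weights, 5 with the intensity trend and 3 among the brighter genes, and was 0 to 2 in fits without 1 array. In IDH1mut against IDH1wt the count of 15 became 7 in a fit on the 6 arrays compared, and 4 to 12 without 1 array. The cause was not tested, beyond fewer arrays in the fits that leave some out. Median differences kept their sign in all of these settings, at -0.24 to -0.15, -0.14 to -0.08 and -0.12 to -0.03 without 1 array, in the order of comparisons above.

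With the replicate number as a block the counts were 28, 0 and 12. Arrays with the same number shared only the number: deviations of the 9 same-numbered pairs from their group means correlated at -0.09 to 0.03. Of 3969 values of the 74 genes that the naming rule took, 3656 kept their side of the threshold, 246 lost the call and 67 gained it. These values pool the 3 comparisons and include genes with no call to lose, so they do not give the share of calls that held. Of the member calls, 17 of 30 against CTL and 13 of 15 against IDH1wt were lost in at least 1 fit without 1 array. No called value turned its sign, and turns of sign among values without a call were not counted. With 3 arrays per group and no detection calls, small differences of dim probe sets could not be resolved.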
